A study of Mus musculus with 9 samples.

Results

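Transcripts of 10 mouse genes that make microRNAs or carry out silencing by them were examined for m6A peaks in wild-type mouse embryonic stem cells (mESCs). The genes were taken by name, and each peak of the wild-type lists that lay within 500 bp of a gene body was assigned to it. They are Dicer1, Drosha and Dgcr8, which process microRNA precursors, the Argonaute genes Ago1 to Ago4, and Tnrc6a, Tnrc6b and Tnrc6c, which encode the GW182 proteins. All 10 were found among the 21900 protein-coding genes of the annotation. They held 28 of the 22531 peaks of replicate 1 and 5 of the 5040 peaks of replicate 2.

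MicroRNAs are cut from long primary transcripts in 2 steps. In the nucleus the Microprocessor, made of the ribonuclease Drosha and its RNA-binding partner Dgcr8, crops a hairpin out of the transcript. In the cytoplasm Dicer trims the hairpin to a short duplex, and an Argonaute protein takes up a single strand of it as a guide to target mRNAs. GW182 proteins bind Argonaute and recruit deadenylases, after which the target is decapped and degraded. In mESCs this pathway is known for its role in leaving self-renewal during differentiation. N6-methyladenosine (m6A) is a methyl mark on adenosines of mRNA, placed while the transcript is made and most often found near stop codons and in long exons.

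The cells were wild type at the m6A machinery, carried the label "Rosa26:CRE, Bir ligase" like the knockout cells of the series, and grew on gelatin with serum and LIF-conditioned medium. Poly(A)-selected RNA was immunoprecipitated with a polyclonal rabbit anti-m6A antibody in 2 experiments, and 1 list of peaks was made for each against input. The labels hold 1 wild-type input library for both immunoprecipitations, so the lists may share their control, and its part in the overlap of the lists was not tested. The Mettl3 and Zc3h13 knockout libraries were not analysed here, so all values below describe wild-type cells and no genotypes were compared. A peak's fold enrichment is the ratio of immunoprecipitate to input at its summit, and −log10 q is its significance after correction, both as the authors' peak caller gave them. The lists hold no read counts, so depth is unknown, a gene without a peak cannot be told from a gene that was not expressed, and values of both lists stand side by side without adjustment. Single peaks carry "H4" in their names in the list of replicate 1, which the labels do not explain, and "WT" in that of replicate 2. The grouping here follows the sample labels, by which both are wild type. Neither the labels nor the methods say whether the replicates came from separate cultures. A peak was listed in replicate 1 at 41.3% of all protein-coding genes and in both replicates at 16.1%. Of 14 pluripotent stem cell markers, 8 had a peak in replicate 1. Their highest fold enrichments ran from 1.27 (Sox2) and 1.67 (Nanog) to 3.45 (Tbx3) and 11.8 (Esrrb). The other 6 had none, including Pou5f1. Only Tbx3 of these 14 had a peak in both replicates (7.14%). Of 6 fibroblast markers, 3 had a peak in replicate 1, and 2, Pdgfra and Pdgfrb, in both replicates (33.3%). Peaks do not measure expression, so these counts do not tell cell types apart, and in bulk RNA fewer cells of a type and less RNA per cell cannot be told apart either.

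Peaks were listed at 8 of the 10 genes in replicate 1 and at 4 in replicate 2, and those 4 were Dicer1, Tnrc6a, Tnrc6b and Tnrc6c. Ago1 and Ago3 had no peak in either list. Drosha, Dgcr8, Ago2 and Ago4 had peaks in replicate 1 only. Over all protein-coding genes, 41.3% had a peak in replicate 1, 16.9% in replicate 2 and 16.1% in both. The members are long genes, from 33.7 kb (Ago1) to 230 kb (Tnrc6b), with a median of 94.0 kb against 17.1 kb over all protein-coding genes. Among the 6091 protein-coding genes with a body in that range, the shares were 55.3%, 21.6% and 20.8%. The members' share with a peak in both replicates was 40.0% and their share in replicate 1 was 80.0%. With 10 genes, chosen by name with earlier results known, no test was run on these shares. With only peaks of at least 4-fold enrichment, 5 members had a peak in replicate 1, and when the first list was shortened to the 5040 most significant entries, 3 did. The shares over other genes were not computed at these 2 settings, so the counts cannot be set against the shares above.

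**Figure D1:**
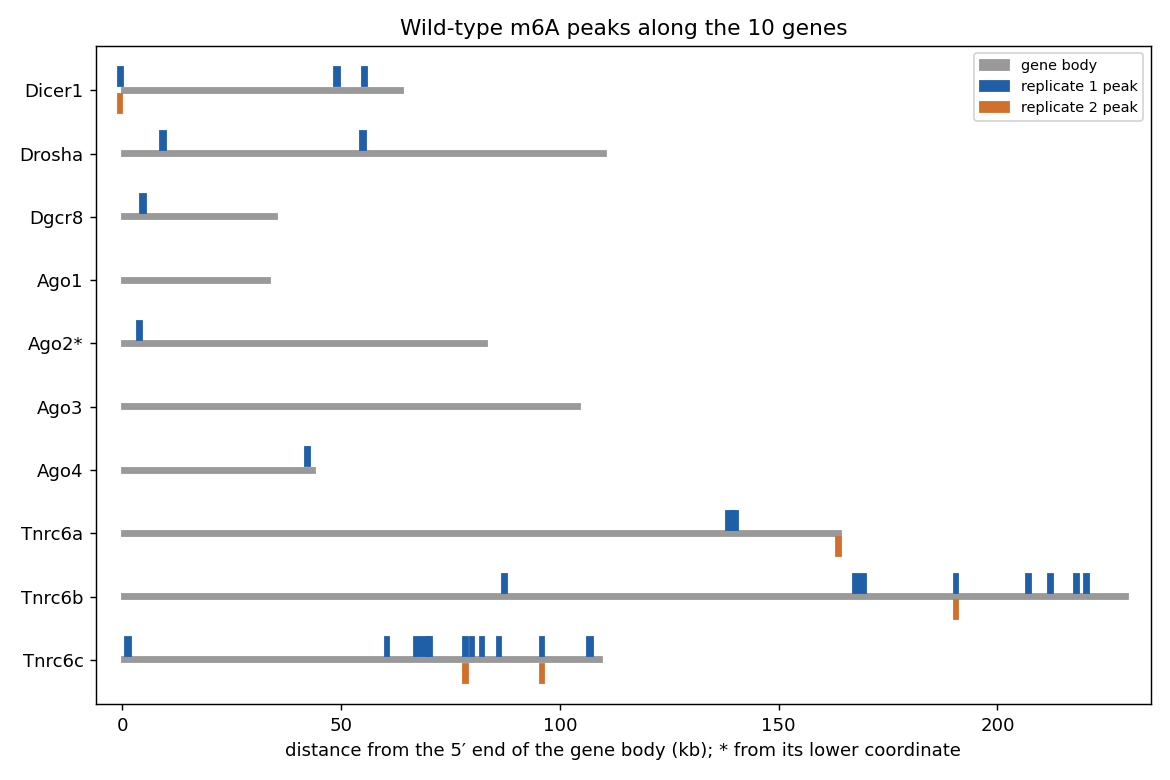
Peaks of both wild-type replicates along the 10 genes, in kb from the 5′ end of each gene body (for Ago2, whose strand was not in the tables used, from its lower coordinate). Grey bars are gene bodies, blue marks above them replicate 1 peaks and orange marks below them replicate 2 peaks, each drawn 0.7 kb wider than it is; the 3 Tnrc6 genes hold 20 of the 28 replicate 1 peaks.

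The 3 processing genes differed in where their peaks lay, and only Dicer1 had a peak that the second immunoprecipitation repeated. Of all peaks of replicate 1, 19.1% overlapped a peak of replicate 2, so most peaks of that list were not repeated. Dicer1 encodes the cytoplasmic ribonuclease of the pathway and lies on the minus strand of chromosome 12 of GRCm38 (mm10), from 104687740 to 104751968. Its highest peak, at chr12:104752257-104752714 in replicate 1, had a fold enrichment of 13.5 at a −log10 q of 121, and 92.6% of the peaks of that list had a lower fold. It was the highest fold enrichment of all 28 member peaks of replicate 1. In replicate 2 a peak at chr12:104752372-104752700 lay wholly inside it, with a fold enrichment of 8.79 at a −log10 q of 10.2, and the summits of the 2 peaks were 3 bp apart. Neither peak overlapped the gene body. On the strand of Dicer1 they lay upstream of it: the summit of replicate 1 was at -523 bp from the listed transcription start, and the peak began 289 bp beyond the end of the annotated gene. No other annotated gene lay within 500 bp, and the nearest, Clmn, was 10.4 kb away. The lists carry no strand, so they do not show from which strand the RNA came.

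Inside the body of Dicer1, replicate 1 held 2 weaker peaks and replicate 2 held 0. One at chr12:104702493-104703292 was 800 bp wide with a fold enrichment of 2.23, and one at chr12:104696461-104696918 had 2.37. Their −log10 q of 46.0 and 56.9 stood above the median of the list, 28.9, although their fold enrichment was in its lowest 10%. Their summits lay 76.7% and 86.1% of the way along the gene body. Without the 500 bp allowance Dicer1 kept these 2 peaks in replicate 1 and had none in replicate 2, so its place among the genes with a peak in both replicates rests on the upstream site.

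Drosha, the nuclear ribonuclease, had 2 peaks in replicate 1 and 0 in replicate 2. The gene runs on the plus strand of chromosome 15 from 12824804 to 12935291. The peak at chr15:12879435-12880032 had a fold enrichment of 8.60 at a −log10 q of 40.9, and its summit was 49.8% along the gene body. The peak at chr15:12833759-12834382, 8.33% along, had a fold enrichment of 2.10, the lowest of all member peaks, with nearly the same −log10 q of 39.8. The annotation used gives no exons, so whether either lies in an exon is not known here.

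Dgcr8, the RNA-binding partner of Drosha, had 1 peak in replicate 1 and 0 in replicate 2, and that peak lay over microRNA hairpins inside its own gene. The gene runs on the minus strand of chromosome 16 from 18253948 to 18289251, and the peak at chr16:18284295-18284797 was 503 bp wide, with a fold enrichment of 3.37 at a −log10 q of 53.7. Its summit was 4620 bp downstream of the listed start, 13.3% along the gene body. The hairpin annotated as Gm24572, the source of miR-3618, runs from 18284550 to 18284637 on the same strand, and all of its 88 bases were inside the peak. The summit stood 2 bp past the 3′ end of that hairpin. The hairpin of Mir1306, from 18284239 to 18284317, began inside the peak and ran out of it, with 23 of its 79 bases covered. It is known that the Microprocessor cleaves hairpins in the Dgcr8 transcript itself, which lowers Dgcr8 levels. Of the 1005 mouse hairpins in the table, 50 (4.98%) overlapped a peak of replicate 1 and 8 (0.796%) one of replicate 2, and neither Dgcr8 hairpin was among the 8.

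The mature arms of both hairpins are printed from RefSeq (GRCm38.p6) because the peak splits them: both arms of miR-3618 lay inside it, 16 of the 23 bases of miR-1306-5p did, and 0 of those of miR-1306-3p. Capitals mark the seed, bases 2 to 8 from the 5′ end.
miR-3618-5p: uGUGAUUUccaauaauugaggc
miR-3618-3p: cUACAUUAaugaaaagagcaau
miR-1306-5p: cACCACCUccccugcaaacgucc
miR-1306-3p: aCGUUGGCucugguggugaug
The 4 seeds differ from each other, and 0 other mature microRNAs of the table share any of them. The letters GGAC, the core of the best-known m6A consensus, occurred 0 times in the Gm24572 hairpin on either strand. In the Mir1306 hairpin they occurred 2 times on its own strand, starting at bases 48 and 70 and so outside the 23 bases in the peak, and 2 times on the opposite strand. GGACT, a longer form that contains GGAC, was absent from both hairpins on their own strand, as from all but 8.16% of hairpins. Of all hairpins, 24.5% held GGAC on their own strand and 40.5% on either strand. The rest of the Dgcr8 peak, outside the hairpins, was not searched, so these counts do not show whether the peak holds the consensus.

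**Figure D2:**
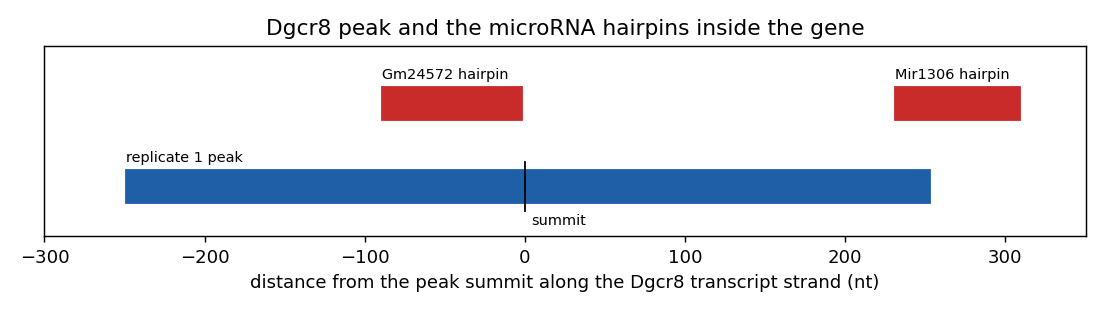
The replicate 1 peak of Dgcr8 (blue) and the microRNA hairpins inside the gene (red), in nt from the peak summit along the transcript strand. All 88 bases of the Gm24572 hairpin lie in the peak, ending 2 bp before the summit, and 23 of the 79 bases of the Mir1306 hairpin do.

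The Argonaute genes, whose proteins hold the microRNA and, for Ago2, can also slice a fully paired target, had the fewest peaks of the 3 groups. Together they held 2 peaks in replicate 1 and 0 in replicate 2. Ago1 (chromosome 4, 126435012 to 126468707) and Ago3 (126326994 to 126431670) had none, although Ago3 is 105 kb long. Ago4, their neighbour on chromosome 4 from 126489487 to 126533586, had a peak at chr4:126491054-126491582 with a fold enrichment of 9.07 at a −log10 q of 17.4. Its summit lay 1862 bp before the 3′ end of the gene body, 95.8% of the way along. The fold enrichment stood above 80.9% of the list and the −log10 q below its median of 28.9. Ago2 lies on chromosome 15 from 73101625 to 73184947. Its peak at chr15:73105266-73105640 had a fold enrichment of 2.50 at a −log10 q of 24.3, 3816 bp above the lower coordinate of the gene body. The strand of Ago2 was not in the tables used, so this end is not named as 5′ or 3′.

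The 3 GW182 genes held most of the peaks, 20 of 28 in replicate 1 and 4 of 5 in replicate 2. They encode the scaffold proteins that link Argonaute to the deadenylases. Tnrc6a and Tnrc6b are also the longest members, at 164 and 230 kb. Per 10 kb of gene body, replicate 1 had 0.183 peaks at Tnrc6a, 0.305 at Tnrc6b and 0.911 at Tnrc6c. The other members with a peak had 0.467 (Dicer1), 0.283 (Dgcr8), 0.227 (Ago4), 0.181 (Drosha) and 0.120 (Ago2). Gene bodies include introns, and no such density was computed for other genes, so these values only compare the members. Tnrc6c (plus strand of chromosome 11, 117653703 to 117763439) had 10 peaks in replicate 1. Only 76 protein-coding genes had more, and 71 of the 6091 genes in the members' length range had 10 or more (1.17%). That range runs from 33.7 to 230 kb. Only 3367 of its genes had any peak in replicate 1, so shares of the genes with a peak would be higher. Tnrc6b (plus strand of chromosome 15, 80711313 to 80941086) had 7, a number that 251 of all genes in that range reached (4.12%). Tnrc6b sets the upper end of the range, so none of those genes is longer, and no closer length match was made. Tnrc6a (plus strand of chromosome 7, 123031101 to 123195296) had 3, against a median of 2 in the genes of that range that had any.

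The peaks of Tnrc6c ran from the start to the end of the gene. The first, at chr11:117654698-117655236, had the highest fold enrichment of the gene, 12.9, with a −log10 q of 67.5, and its summit was 679 bp downstream of the listed start. After a long stretch without a peak, the other 9 lay between 55.1% and 97.4% of the way along. Among these was a peak 2859 bp wide at chr11:117720768-117723626, the 97th widest of all 22531 peaks of replicate 1, with a fold enrichment of 3.60 at a −log10 q of 117. The peak at chr11:117731934-117732265 had a fold enrichment of 7.01 and that at chr11:117735728-117736039 had 5.90. The remaining 6 ranged from 2.58 to 4.15. The last, at chr11:117760344-117760991, had 2.90, with its summit 2851 bp before the end of the gene body.

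Of these 10 sites, replicate 2 listed 2. At chr11:117731950-117732250 it had a fold enrichment of 9.43 at a −log10 q of 11.6, with the summit 37 bp from that of replicate 1. At chr11:117749463-117749787 it had 8.25 and 9.09, against 3.53 and 32.9 in replicate 1, with the summits 31 bp apart. Neither the first peak, with the highest fold enrichment in replicate 1, nor the widest peak, with the highest −log10 q, overlapped a peak of replicate 2.

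In Tnrc6b, 1 peak lay 38.0% of the way along and 6 lay between 73.5% and 95.9%. The widest, at chr15:80878713-80881039, measured 2327 bp, with a fold enrichment of 4.42 at a −log10 q of 92.1. The highest, at chr15:80923227-80923629, had 10.7 and 138, the highest −log10 q of all member peaks, and did not overlap a peak of replicate 2. Replicate 2 listed 1 peak, at chr15:80901679-80901995, which lay inside that of replicate 1 at chr15:80901660-80901997. There replicate 1 was enriched 8.97-fold and replicate 2 was enriched 7.49-fold, and the −log10 q was 67.3 and 7.07. The remaining 3 late peaks of replicate 1 had fold enrichments of 3.09 to 4.01. The microRNA hairpin annotated inside Tnrc6b, Mir5113, was 8062 bp from the nearest peak.

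The first peak of Tnrc6b, at chr15:80798479-80798776, sat on an internal start of the gene. RefSeq lists 2 starts for Tnrc6b, and the summit of this peak was 4 bp downstream of the second, 87.3 kb into the gene body. Its fold enrichment was 7.45 and its −log10 q 12.02, and replicate 2 had no peak there. The 30 bases around the summit (RefSeq, GRCm38.p6, plus strand, chr15:80798599-80798628) are shown because they span that start, with the summit base in capitals.
Tnrc6b second start: gagggggagagagagAgcaggagggagagt
The peak covered 181 of the 300 bases of the start window, which runs from 250 bases before a start to 50 after it. These are 181 of the 298 bp of the peak, and the rest of the peak, downstream of the window, was not searched. GGAC occurred 0 times in this window on either strand, against 65.6% of all 32851 start windows on the gene's strand and 87.7% on either. GGACT was also absent, against 26.1% of windows on the gene's strand and 45.5% on either. Among the 11 start windows of the members this was the 1 with a peak in replicate 1 (9.09%, where all windows had 6.51%), and 0 had one in replicate 2.

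Tnrc6a had peaks in both replicates but at different places. In replicate 1 its 3 peaks stood close together, within 2093 bp and 84.4% to 85.3% of the way along the gene body. They lay at chr7:123169400-123169944, chr7:123170275-123170683 and chr7:123170874-123171492, with fold enrichments of 2.89, 2.13 and 3.03. All 3 were below the median fold enrichment of the list, 5.39. The 1 listed start of Tnrc6a lies inside the gene body. The first of these summits was 45774 bp downstream of that start and 138558 bp from the 5′ end of the body. From the listed start the peaks would thus stand less far along. In replicate 2 its 1 peak, at chr7:123194583-123194913, had a fold enrichment of 7.87 at a −log10 q of 7.95, and its summit was 481 bp before the end of the gene body. It overlapped no peak of replicate 1, whereas 92.1% of the peaks of replicate 2 did. At a fold enrichment of at least 4, Tnrc6a had no peak left in replicate 1.

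**Figure D3:**
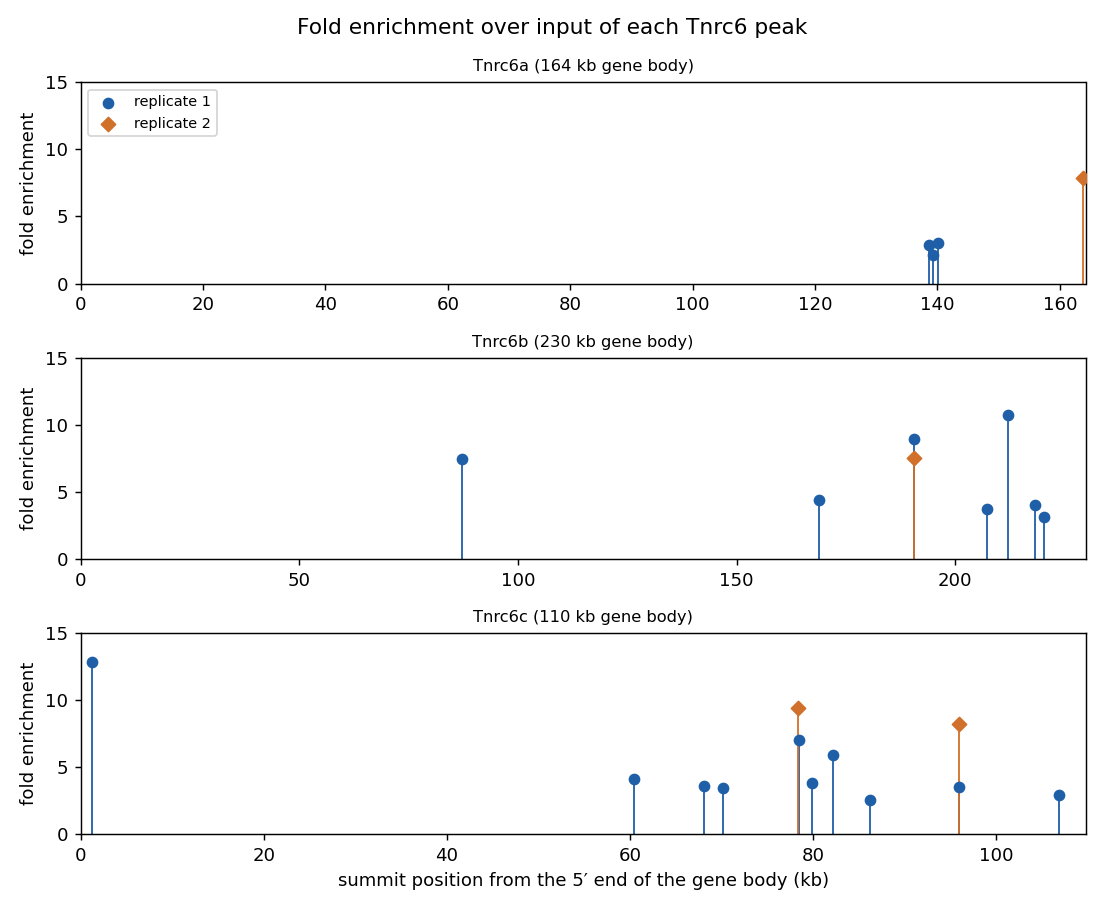
Fold enrichment over input at the summit of each peak of Tnrc6a, Tnrc6b and Tnrc6c, by distance in kb from the 5′ end of the gene body. Blue circles are replicate 1 and orange diamonds replicate 2; the orange diamonds of Tnrc6b and Tnrc6c stand at sites that replicate 1 also lists, and that of Tnrc6a does not.

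Of the 5 member peaks of replicate 2, 4 had a counterpart in replicate 1 (80.0%, where the whole list had 92.1%). Of the 28 member peaks of replicate 1, 4 had a counterpart in replicate 2 (14.3%, where the whole list had 19.1%). The 4 shared sites were upstream of Dicer1, in Tnrc6b and at 2 places in Tnrc6c, and at each the peak of replicate 2 was 301 to 329 bp wide with summits 3 to 37 bp apart. In replicate 1 the shared peaks had fold enrichments of 3.53 to 13.5 and the other 24 had 2.10 to 12.9, so the ranges overlapped. Among the 5040 most significant peaks of replicate 1, 8 were member peaks and 3 of them were shared (37.5%, against 49.1% of all).

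In replicate 1 the member peaks had a lower fold enrichment and a higher −log10 q than the list they came from. The median fold enrichment was 3.64 against 5.39, and 9 of the 28 stood above the median of all peaks. The median −log10 q was 41.2 against 28.9, and 18 of the 28 stood above. In replicate 2 the 5 member peaks had fold enrichments of 7.49 to 9.43, all above the median of that list, 6.35, and 4 of them had a −log10 q above its median of 7.54. Peaks of the same gene share its transcript and are not replicates, so these medians were not tested.

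**Figure D4:**
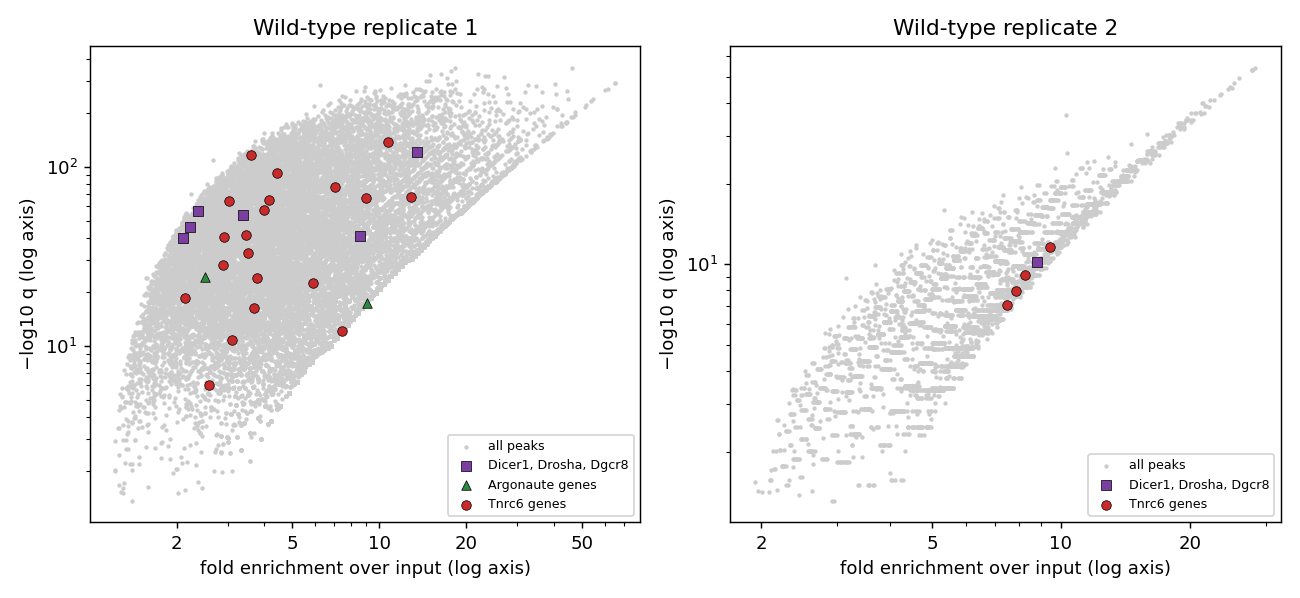
Fold enrichment over input against −log10 q, both on log axes, for all peaks of each wild-type list (grey) and for the member peaks (squares processing genes, triangles Argonaute genes, circles Tnrc6 genes). In replicate 1 most member peaks lie left of the median fold enrichment of 5.39, and in replicate 2 all 5 lie above 7.

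The share of member peaks late in the gene was near that of other genes in the members' length range. Of the 26 summits of replicate 1 inside a member of known strand, 14 lay in the last 25% of the gene body and 3 in the first 25%. That is 53.8% and 11.5%, against 54.0% and 16.5% of the 6913 summits in other genes of that range. In replicate 2, 3 of 4 lay in the last 25%, against 73.4% of 1318. Within 1 kb of the annotated 3′ end there were 0 of the 26 in replicate 1 (7.12% in the other genes) and 1 of the 4 in replicate 2, that of Tnrc6a (15.5%). Introns are part of these lengths, and stop codons were not in the table used.

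Other genes of the pathway were read from 5 lists by role, 66 genes in all, of which 33 had a peak in replicate 1 and 13 in both replicates (19.7%). For nuclear cropping and export 3 of 11 had a peak in both: Smad1, Smad5 and Ncbp2, a cap-binding subunit. Smad1 and Smad5 are BMP signal transducers that also associate with the Drosha complex. Smad1 had 6 peaks in replicate 1 and 3 in replicate 2, with the highest fold enrichments at 8.94 and 10.3. Smad5 had 4.94 and 5.50, and Ncbp2 had 2.05 and 3.09. The export receptor gene Xpo5, Ran and Ncbp1 had no peak. Among Dicer partners and factors of let-7 turnover 1 of 11 did, Adar, the RNA editing enzyme, with 6.90 and 5.99. Tarbp2 and Prkra, partners of Dicer, and Lin28a, the let-7 inhibitor, had no peak. Among genes of Argonaute loading and its relatives 1 of 13 did, Limd1, a LIM protein of processing bodies, with 5.05 and 4.14, while Hsp90aa1, Fkbp4 and Ptges3 had none.

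Downstream of GW182, the list of 17 genes held subunits and partners of the CCR4-NOT and PAN deadenylase complexes, not only the deadenylases themselves. Of these, 6 had a peak in both replicates (35.3%): Cnot1, Cnot2, Cnot4, Pan3, Tob1 and Tob2. Cnot1, the scaffold of the CCR4-NOT complex, reached 10.4 in replicate 1 and 6.996 in replicate 2 by fold enrichment. Pan3, which binds the PAN2 nuclease and GW182, had 10.9 and 5.10, and Tob2, an adaptor of the deadenylases, had 12.6 and 5.91. The other 3 were low in at least 1 list. Cnot4, a ubiquitin ligase, had 22.8 in replicate 1 but 2.83 at a −log10 q of 1.87 in replicate 2. Cnot2, a subunit of the complex, had 2.25 and 5.19, and Tob1, a relative of Tob2, had 2.46 and 2.70. In all 6 a peak of replicate 2 overlapped one of replicate 1. No peak was listed for Cnot3, Cnot6l or Cnot7. Of 14 genes of decapping and decay 2 did, Dcp1a and Edc3, with 3.57 and 2.35 in replicate 1 and 4.18 and 5.03 in replicate 2. Dcp1b, Edc4 and Lsm14a had none. With 11 to 17 genes a list, these shares are descriptions beside the 16.1% of all protein-coding genes, and differences between lists were not tested.

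**Figure D5:**
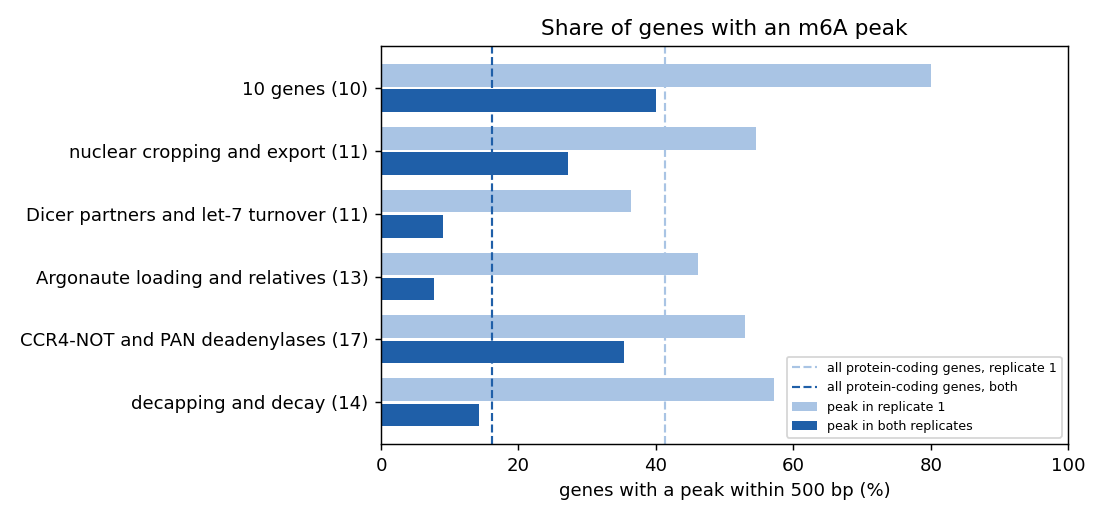
Percent of genes with a peak within 500 bp in replicate 1 (light bars) and in both replicates (dark bars) for the 10 genes and 5 lists of the pathway, with the number of genes in brackets. Dashed lines are all protein-coding genes, at 41.3% and 16.1%. The 10 genes stand at 80.0% and 40.0%. Protein-coding genes in the members' length range, not drawn, had 55.3% and 20.8%.

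The 500 bp limit decided only the place of Dicer1. Its upstream peaks lay 289 bp (replicate 1) and 404 bp (replicate 2) from the gene body, and all other member peaks overlapped a body. The nearest peaks left out were those of neighbouring genes, within 10 kb at 4 members. They were at Trmt2a, 2724 bp from Dgcr8 enriched 2.64-fold in replicate 1 and 4.88-fold in replicate 2, at Tmc6, 2747 bp from Tnrc6c with 2.75, at Tekt2, 4057 bp from Ago3 with 4.11, and at Chrac1, 7745 bp from Ago2 with 1.80.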

How the data were processed

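Bowtie, SAMtools, MACS2 and mm10 stand in the submitters' processing notes with no version. With MACS2 at its defaults the authors compared wild-type immunoprecipitates with input, giving 1 list for each replicate. The deposited lists hold the position and summit of a peak, its fold enrichment (a ratio to input) and the −log10 of its p-value and its q-value. The deposited score, 10 times the −log10 q, was not used. How duplicates and strand were handled was not given in the sources used here.

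Peaks were joined to the bodies of 49997 RefSeq genes of GRCm38 (mm10), within 500 bp, printed from 1. Strand and starts came from RefSeq start windows, hairpins from RefSeq. Peaks sharing 1 bp counted as overlapping. The members and lists were chosen with earlier results of these data known. Every member was named, with the genes of each list that had a peak in both replicates and up to 3 without. No test was run. Overlap code was checked on simulated data (0 differences). Tried in turn were cuts at −log10 q 5 and at 4-fold enrichment, other distances (0 and 2000 bp), the nearest gene, a reduced replicate 1, each replicate alone and stricter overlaps. GGAC and GGACT were searched in start windows and hairpins. Exons, stop codons and the rest of the peak sequences were not analysed here. Scripts ran in Python 3.11.15 with pandas 2.3.3 and numpy 2.4.6, and figures in matplotlib 3.10.9.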

Additional observations from a re-analysis of the deposited data

How the results depend on the processing

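Of 33 alternative counts, 28 stayed within 1.5 times of the value in the report. Keeping peaks enriched 4-fold or more, the members with a peak in replicate 1 numbered 5 instead of 8 and the member peaks of both lists 17 instead of 33. With the first list shortened to the number of peaks in the second, these were 3 and 13. Both settings remove peaks by construction. For none of the alternatives was the share over all protein-coding genes computed, so these counts describe the members only. Members with a peak in both replicates numbered 4, and 3 with peaks enriched 4-fold or more (without Tnrc6a), with the shortened list (without Tnrc6a), at 0 bp (without Dicer1) and when the peaks of both replicates had to overlap (without Tnrc6a). With 1 replicate alone the count was 4 to 8, the 8 without replicate 2. The shortened list combined with overlapping peaks, an alternative added after seeing the data, gave 3 members. At 0 bp, 2 members (Tnrc6b and Tnrc6c) had peaks of both replicates that overlapped, and the shared member peaks of replicate 2, counted there after seeing the data, numbered 3. No paired analysis was possible because no groups were compared. Motif searches over whole peaks, exons and stop codons were not run for want of a genome. The files give no depth, and its effect on these counts could not be computed.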

Other observations

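In the wild-type lists, 7 mouse microRNA hairpins overlapped a peak in both wild-type replicates, namely Gm23450, Gm51264, Mir12188, Mir6244, Mir6899, Mir7017 and Mir7658. They are 0.697% of the 1005 hairpins in the table, and 7 of the 8 that overlapped a peak of replicate 2. None lies inside a gene of the list above.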
